A study of Mus musculus with 12 samples.

Results

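Of 4 cell populations in a study of the mouse epidermis, 2 are compared here: cells that carried a Gata6 reporter signal but lacked integrin alpha 6 (Gata6+Itga6− cells), and the Itga6+ keratinocytes that had neither the reporter signal nor CD34 (remaining Itga6+ cells). The members are the 6 arrays whose labels name these populations, 3 for each, of 12 arrays in all, and the arrays were taken by these labels and not by measured values, although the comparison itself was chosen with earlier results of these data known. All cells came from back skin epidermis, taken while the follicles rested in telogen, of untreated female mice of a C57BL6/CBA background that carried a Gata6-mTomato reporter, in which red fluorescence marks cells with Gata6 activity. Both populations therefore share the reporter genotype. The other 6 arrays hold Gata6+Itga6+ cells, which carry both marks, and CD34+Itga6+ cells of the hair follicle bulge, 3 arrays each. The labels call the 3 arrays of a population biological replicates, describe the mice as matched for age without giving it, and do not say how many animals went into a sort. The comparison crosses both gates at once, so a difference may lie with Gata6, with Itga6 or with both.

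Gata6 is a zinc-finger transcription factor that binds GATA motifs and, in mouse skin, marks the upper hair follicle and the duct of the sebaceous gland. Itga6 pairs with integrin beta 4 in hemidesmosomes, which hold basal keratinocytes to the basement membrane. Keratinocytes that leave this membrane stop dividing, exchange the keratins Krt5 and Krt14 for others, build desmosomes of another composition and make the proteins and lipids of the cornified barrier. A population without Itga6 would by this textbook scheme be suprabasal, although the labels use the word basal for the sorted cells of all samples.

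The upstream sequences of 3 of the genes with the largest changes are shown because Gata6 is the factor the sort was built on. They are the 250 bases before the transcription start in RefSeq's table for GRCm38.p6, in lower case with GATA motifs in capitals. The Defb6 promoter lies at chr8:19225228-19225477 on the plus strand, the Krt79 promoter at chr15:101940325-101940574 on the minus strand and the Sprr1a promoter at chr3:92485882-92486131 on the minus strand.
Defb6: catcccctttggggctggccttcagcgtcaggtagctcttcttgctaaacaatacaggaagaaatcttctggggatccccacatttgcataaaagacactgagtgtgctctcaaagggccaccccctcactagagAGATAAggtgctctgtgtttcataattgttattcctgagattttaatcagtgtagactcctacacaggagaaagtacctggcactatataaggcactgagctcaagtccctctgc
Krt79: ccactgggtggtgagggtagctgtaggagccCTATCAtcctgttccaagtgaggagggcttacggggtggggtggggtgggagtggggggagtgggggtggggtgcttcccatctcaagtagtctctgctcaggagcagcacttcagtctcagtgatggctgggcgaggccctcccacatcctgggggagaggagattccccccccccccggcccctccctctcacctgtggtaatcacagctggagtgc
Sprr1a: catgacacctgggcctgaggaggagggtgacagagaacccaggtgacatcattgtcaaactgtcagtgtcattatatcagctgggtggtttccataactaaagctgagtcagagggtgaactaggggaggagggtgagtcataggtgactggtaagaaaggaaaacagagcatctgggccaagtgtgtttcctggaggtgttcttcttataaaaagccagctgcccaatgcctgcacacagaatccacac
The search covered both strands for the motif AGATAA, for its variant spelled AGATAG, for a further variant spelled TGATAA and for the last one, spelled TGATAG; these forms share their core letters and none was counted apart. Defb6 held 1 of them, which began 115 bases before the start, Krt79 held 1 on the opposite strand, 219 bases before it, and Sprr1a held none in this window. The same window of Ear2, also among the genes with the largest changes, was searched and held none, and its sequence is not shown. Of 543 listed promoters of 403 genes that were higher in Gata6+Itga6− cells, 19.9% held such a motif. The share was 16.7% among 406 promoters of 303 genes that were lower, and 22% (3903) among 17777 promoters of all 14364 measured genes with an entry. These shares describe letters in a window and were not tested.

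Levels are log2 of the array intensity plus 1, and a gene's level is the median over its probe sets, short stretches of exons that the array measures separately. They are compared between populations for the same gene and never between genes. A value of 2.44 on this scale, under which 95% of 1139 receptor genes of smell and pheromone sensing lay, served as the level of silent genes, and a fold is written as at least N-fold where the lower mean lay under it. Folds are taken on the log2 scale of intensity plus 1, which makes those of dim genes smaller. A bulk array of sorted cells cannot tell fewer cells of a type from less RNA per cell. Arrays correlated across genes at r = 0.948 to 0.950 within Gata6+Itga6− cells, at 0.935 to 0.939 within remaining Itga6+ cells and at 0.851 to 0.879 between them; genes are not independent replicates. Gata6+Itga6− replicate 2 and remaining Itga6+ replicate 3 were the brighter array of their group, with upper quartiles of intensity of 15.5 against 13.2 and 13.2 in the first group, and of 16.0 against 12.1 and 12.4 in the second. Counts of a gene group that move by over 1.5 times without these 2 arrays are given with it, and the part of brightness in them was not tested further.

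The 3 genes behind the gates had levels that matched the labels. Gata6 stood at 5.84, 5.89 and 5.80 in Gata6+Itga6− cells, against 2.74, 2.38 and 3.07 in remaining Itga6+ cells (log2 change 3.12, SE 0.22, adjusted p = 1.8e-05). Its 16 probe sets were all higher in Gata6+Itga6− cells, 12 of them without overlap of the arrays, but by log2 changes that ran from 0.067 to 6.85, so the median understates what the most responsive exons showed. Itga6 was at 5.76, 6.36 and 5.94 in Gata6+Itga6− cells, against 7.33, 7.50 and 8.17 in remaining Itga6+ cells (log2 change −1.65, SE 0.26, adjusted p = 0.00367). All 25 Itga6 probe sets were lower, 21 without overlap, yet the transcript stayed far over the level of silent genes in cells sorted as negative for the protein, and the call was lost when the brightest probe set stood for the gene (log2 change −0.90). Cd34 lay under the level of silent genes in both populations, at 1.96 ± 0.19 and 1.66 ± 0.16 (SD, n = 3), and at 7.95 ± 0.033 in CD34+Itga6+ cells. Differences of the sort genes check the labels and are not findings.

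**Figure D1:**
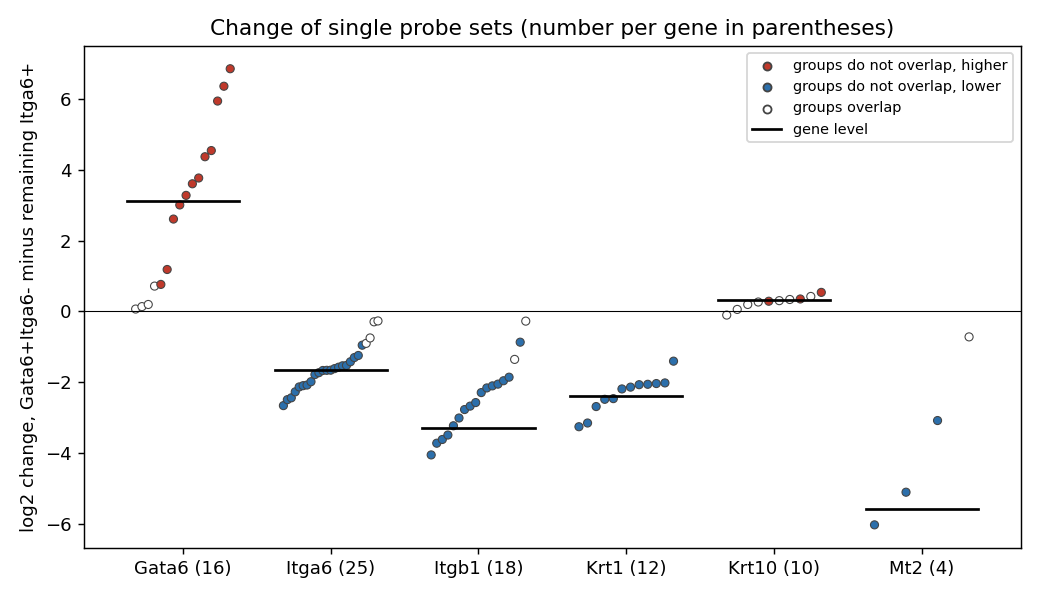
Change of each single probe set of 6 genes, as the log2 difference of Gata6+Itga6− minus remaining Itga6+ means (y axis), with the number of probe sets of each gene in parentheses on the x axis. Filled points are probe sets whose 3 arrays per group do not overlap, red where higher and blue where lower; open points overlap, and the black line is the gene-level change. Gata6 runs from 0.067 to 6.85 and Itga6 from −2.66 to −0.27, all 12 Krt1 probe sets are lower, and those of Krt10 run from −0.10 to 0.54.

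In all, Gata6+Itga6− cells had 529 of 17853 genes higher (2.96%) and 384 lower (2.15%) than remaining Itga6+ cells, together 5.11%, at a limma adjusted p under 0.05, and 718 genes (4.02%) also changed by at least 2-fold. The arrays of the populations did not overlap in any of the 913 called genes. Such separation was common in itself, since 9.79% of all genes were separated with Gata6+Itga6− cells higher and 10.0% with them lower, 19.8% together. The median log2 change over all genes was 0.0017. Many changes ran to or from silence: 212 of the higher genes had a mean under the level of silent genes in remaining Itga6+ cells, and 207 of the lower genes had one in Gata6+Itga6− cells. In 45 called genes both means lay under it, and no fold is given for these. Higher genes outnumbered lower ones with all arrays, but not without remaining Itga6+ replicate 1 (362 higher, 382 lower). The count of lower genes was 253 without Gata6+Itga6− replicate 1, 240 without Gata6+Itga6− replicate 3 and 218 without both brighter arrays.

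**Figure D2:**
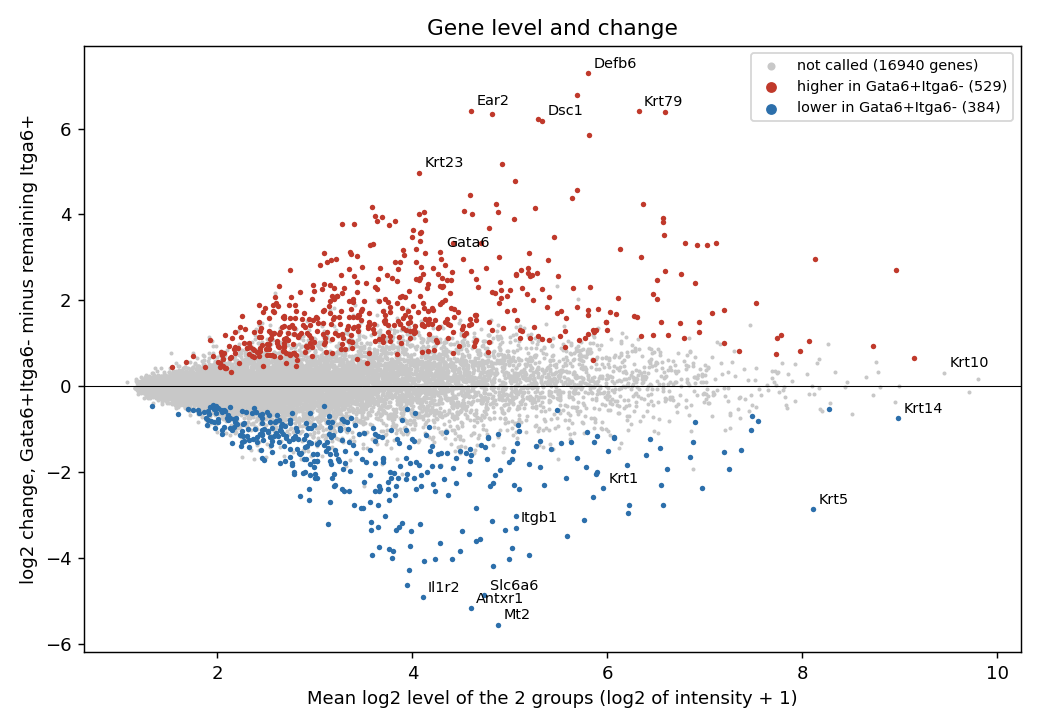
Log2 change of every gene (y axis, Gata6+Itga6− minus remaining Itga6+) against its mean log2 level over both groups (x axis). Red points are the 529 genes higher in Gata6+Itga6− cells, blue points the 384 lower ones and grey points genes that were not called; the widest changes, such as Defb6 at 7.28 and Mt2 at −5.56, lie in the middle of the level range.

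The largest rises in Gata6+Itga6− cells were led by Defb6 and Cst6. By log2 change, Ear2 (6.42), Krt79, Sprr1a and Aadac came next. Defb6, a beta-defensin of the antimicrobial peptides, stood at 9.25, 9.57 and 9.50 in Gata6+Itga6− cells, against 2.11, 1.72 and 2.65 in remaining Itga6+ cells. It was at least 122-fold higher (log2 change 7.28, SE 0.27, adjusted p = 2.8e-07), with the groups far apart and only remaining Itga6+ replicate 3 over the level of silent genes. Cst6 encodes cystatin M/E, an inhibitor of cysteine proteases in skin. It was at 9.28, 8.94 and 9.04 in Gata6+Itga6− cells, against 2.09, 2.19 and 2.61 in remaining Itga6+ cells, at least 96.4-fold higher (log2 change 6.79, SE 0.31, adjusted p = 1.25e-06). Aadac, an esterase of the endoplasmic reticulum, was at 7.94, 7.91 and 8.11 in Gata6+Itga6− cells, against 1.60, 1.49 and 1.88 in remaining Itga6+ cells, at least 46.8-fold higher (log2 change 6.33, SE 0.17, adjusted p = 7.26e-08). All 3 arrays of remaining Itga6+ cells lay under the level of silent genes for Aadac. Sprr1a, a small proline-rich precursor of the cornified envelope, reached 9.75, 9.77 and 9.82 in Gata6+Itga6− cells, against 2.72, 2.82 and 4.65 in remaining Itga6+ cells (83.6-fold higher, log2 change 6.39, SE 0.50, adjusted p = 4.17e-05). Its spread in remaining Itga6+ cells came from replicate 3, and no array of one group reached the other. Sprr4, of the same family and measured by 1 probe set, was at least 61.9-fold higher. Sprr genes are near copies of each other, so the share of each member is uncertain.

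Dsc1 encodes desmocollin 1, a desmosomal cadherin of differentiating layers. It was at 8.43, 8.35 and 8.49 in Gata6+Itga6− cells, against 2.70, 2.28 and 1.74 in remaining Itga6+ cells, with all 13 probe sets separated (at least 59.6-fold higher, log2 change 6.18, SE 0.25, adjusted p = 7.3e-07). Crabp2, which carries retinoic acid to its nuclear receptor, was 57.3-fold higher, at 8.73 ± 0.22 against 2.89 ± 0.63. Krt23, a type I keratin, was at 6.70, 6.32 and 6.66 in Gata6+Itga6− cells, against 1.75, 1.47 and 1.53 in remaining Itga6+ cells. Unlike the genes before it, Krt23 was also near silent in Gata6+Itga6+ cells (2.22 ± 0.19), from which Gata6+Itga6− cells differed by a log2 change of 4.33. The 15 largest rises also included Ear2 (at least 41.5-fold) and Krt79, which is described below with the upper follicle markers. The others were Cd200, a surface glycoprotein that dampens immune cells (at least 30.9-fold), Alox12e, an epidermal lipoxygenase (27.6-fold), and Ndrg2 (23.8-fold). Klk7, a protease that cleaves the desmosomes of the cornified layer (at least 20.7-fold), and Ano9, of the anoctamin membrane proteins (21.0-fold), completed them. Ear2 is a ribonuclease of a family with near-identical copies, rests on 1 probe set, and cannot be told from its relatives here. Limma adjusted p-values of the 15 ran from 7.26e-08 for Aadac and Krt23 to 5.16e-05 for Sprr4.

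The largest falls in Gata6+Itga6− cells were led by the metallothionein Mt2. Mt2, a metallothionein that binds zinc and copper, stood at 1.98, 2.44 and 1.88 in Gata6+Itga6− cells, against 7.36, 7.85 and 7.77 in remaining Itga6+ cells, at least 37.3-fold lower (log2 change −5.56, SE 0.24, adjusted p = 9e-07). Its relative Mt1 was at 2.94, 3.53 and 3.19 in Gata6+Itga6− cells, against 6.96, 7.54 and 6.996 in remaining Itga6+ cells (log2 change −3.94, SE 0.23, adjusted p = 6.05e-06). Both were separated without any overlap, in 3 of 4 probe sets for Mt2 and in 3 of 3 for Mt1. Antxr1, a surface receptor that binds collagen, was at 2.19, 1.92 and 1.91 in Gata6+Itga6− cells, against 6.89, 7.11 and 7.55 in remaining Itga6+ cells (at least 26.8-fold lower). Slc6a6, the taurine transporter, was at least 24.4-fold lower, and Slco2a1, a prostaglandin transporter, 18.2-fold lower. Il1r2, the decoy receptor that takes up interleukin 1 without signalling, was at 1.89, 1.44 and 1.60 in Gata6+Itga6− cells, against 6.37, 6.15 and 7.18 in remaining Itga6+ cells (at least 17.4-fold lower, log2 change −4.92, SE 0.40, adjusted p = 5.67e-05). Matrix and adhesion genes among the 15 were the secreted Ccn1 (at least 13.2-fold), Postn, which encodes periostin (at least 14.5-fold), the secreted protease Htra1 (at least 14.0-fold) and Ctnnal1, a relative of alpha-catenin (at least 12.8-fold). The others were Cbr2, a carbonyl reductase (at least 14.1-fold), Ccdc3 (16.2-fold), the GABA receptor subunit Gabrp (at least 10.2-fold), the serpin Serpinb10 (at least 8.64-fold) and the transcription factor Hlf (14.3-fold). Limma adjusted p-values of the 15 ran from 9e-07 for Mt2 to 0.000404 for Serpinb10.

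**Figure D3:**
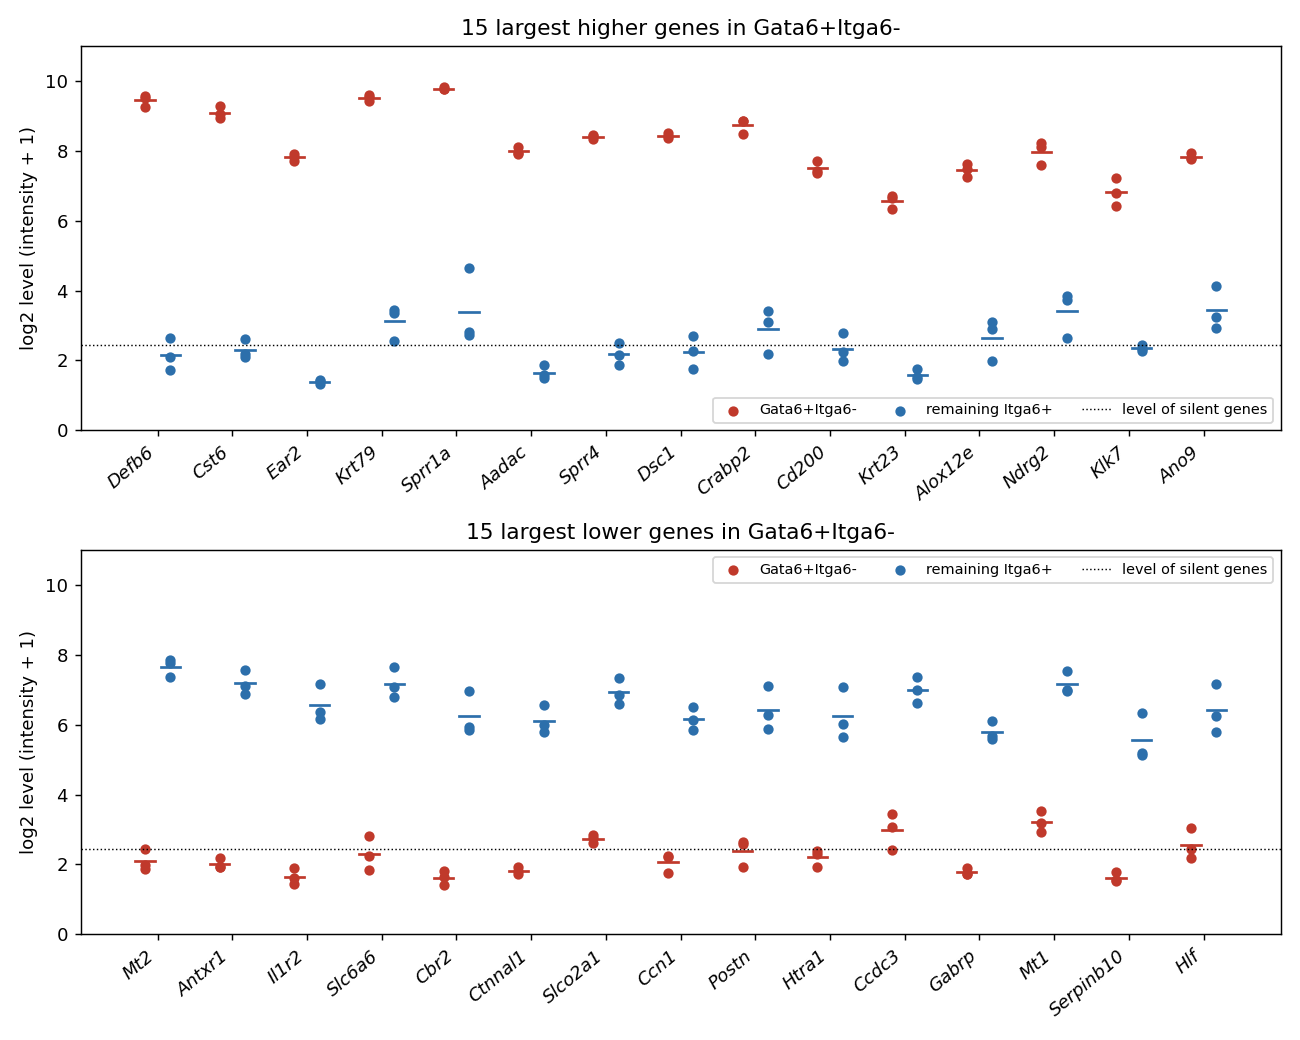
Log2 level (y axis, intensity plus 1) on each array for the 15 genes with the largest rise (top) and the 15 with the largest fall (bottom) among called genes. Red points are the 3 Gata6+Itga6− arrays and blue points the 3 remaining Itga6+ arrays, short lines their means and the dotted line the level of silent genes at 2.44; no pair of groups overlaps, and the lower group usually lies near the dotted line.

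Markers of the upper follicle and sebaceous duct were higher as a group. Of 15 measured genes 10 were higher and none lower (1 lower at an unadjusted p under 0.05), with a median log2 change of 3.20 against 0.0017 over all genes; several were known from earlier results of these data when the list was made. Krt79, a keratin of the upper follicle and duct, stood at 9.61, 9.53 and 9.43 in Gata6+Itga6− cells, against 3.44, 2.57 and 3.35 in remaining Itga6+ cells. All 14 of its probe sets were separated (84.4-fold higher, log2 change 6.40, SE 0.21, adjusted p = 1.48e-07). Plet1, a surface marker of the junctional zone, was at 8.56 ± 0.26 against 5.28 ± 0.49 (9.74-fold higher), and Lrig1, an inhibitor of EGF receptors that marks stem cells there, at 5.23 ± 0.19 against 3.62 ± 0.41 (3.04-fold higher, adjusted p = 0.0112). Krt17 was 9.20-fold higher, Nebl, an actin-binding relative of nebulin, at least 9.13-fold, Atp6v1c2, a subunit of the vacuolar proton pump, at least 10.2-fold, and the kallikrein Klk10 6.41-fold. Members of the list that did not pass the test included Ly6d, at 8.14, 8.49 and 7.89 in Gata6+Itga6− cells, against 6.73, 6.54 and 6.97 in remaining Itga6+ cells (adjusted p = 0.126). The groups of Ly6d do not overlap. Lgr6, a stem cell receptor of the isthmus, had a log2 change of −1.17 (adjusted p = 0.0726), and the aldehyde dehydrogenase Aldh3a1 one of −0.52 (adjusted p = 0.555).

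Keratins did not shift as one set from basal to suprabasal. Krt5, a basal keratin, was at 6.72, 6.96 and 6.34 in Gata6+Itga6− cells, against 9.56, 9.33 and 9.75 in remaining Itga6+ cells, 7.32-fold lower in all 14 probe sets (log2 change −2.87, SE 0.17, adjusted p = 5.4e-06). Its partner Krt14 fell less, to 8.60 ± 0.067 in Gata6+Itga6− cells, against 9.36 ± 0.17 in remaining Itga6+ cells (log2 change −0.75, SE 0.12, adjusted p = 0.00384). Krt1, the keratin that interfollicular cells switch on above the basal layer, was lower and not higher. It stood at 4.67, 4.73 and 4.90 in Gata6+Itga6− cells, against 6.79, 7.17 and 7.47 in remaining Itga6+ cells, and all 12 probe sets were lower without overlap (log2 change −2.38, SE 0.34, adjusted p = 0.00216). Krt10, the usual partner of Krt1, was high in both, at 9.57, 9.58 and 9.69 in Gata6+Itga6− cells, against 9.25, 9.13 and 9.52 in remaining Itga6+ cells. Of its 10 probe sets 9 were higher, 3 without overlap, and the changes ran from −0.10 to 0.54. Krt10 was not called (log2 change 0.31, SE 0.22, adjusted p = 0.641). Krt15, a keratin of the bulge and basal layer, was not called either (log2 change −0.15, SE 0.11, adjusted p = 0.628). The keratin that separated the populations most was Krt79, followed by Krt23 and Krt17. Of 52 measured keratin genes 5 were higher (Krt79, Krt23, Krt17, Krt80 and Krt77) and 3 lower (Krt5, Krt1 and Krt14), a family counted after values were seen. Krt80 (adjusted p = 0.0491) and Krt77 (0.0325) were marginal. Their calls were lost without remaining Itga6+ replicate 1 (Krt80, 0.0602) or remaining Itga6+ replicate 2 or 3 (Krt77, 0.089 and 0.0551), and without each of the 3 Gata6+Itga6− arrays in turn (0.11 to 0.144 for Krt80, 0.0594 to 0.112 for Krt77).

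Set beside the other populations, Krt1 was at 6.997 ± 0.80 in Gata6+Itga6+ cells and 3.03 ± 0.28 in CD34+Itga6+ cells. Gata6+Itga6− cells thus lay below Gata6+Itga6+ cells in Krt1 as well (log2 change −2.23, adjusted p = 0.00725) and above the bulge cells (1.74, adjusted p = 0.00994). Krt10 did not follow this order, at 9.50 ± 0.18 in Gata6+Itga6+ cells and 6.90 ± 0.52 in CD34+Itga6+ cells. Krt5 was at 9.17 ± 0.066 and 9.47 ± 0.15 in the same 2 populations, so that the Gata6+Itga6− arrays were the lowest of the 12, and Krt17 at 6.03 ± 0.45 and 5.003 ± 0.46, so that they were the highest.

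**Figure D4:**
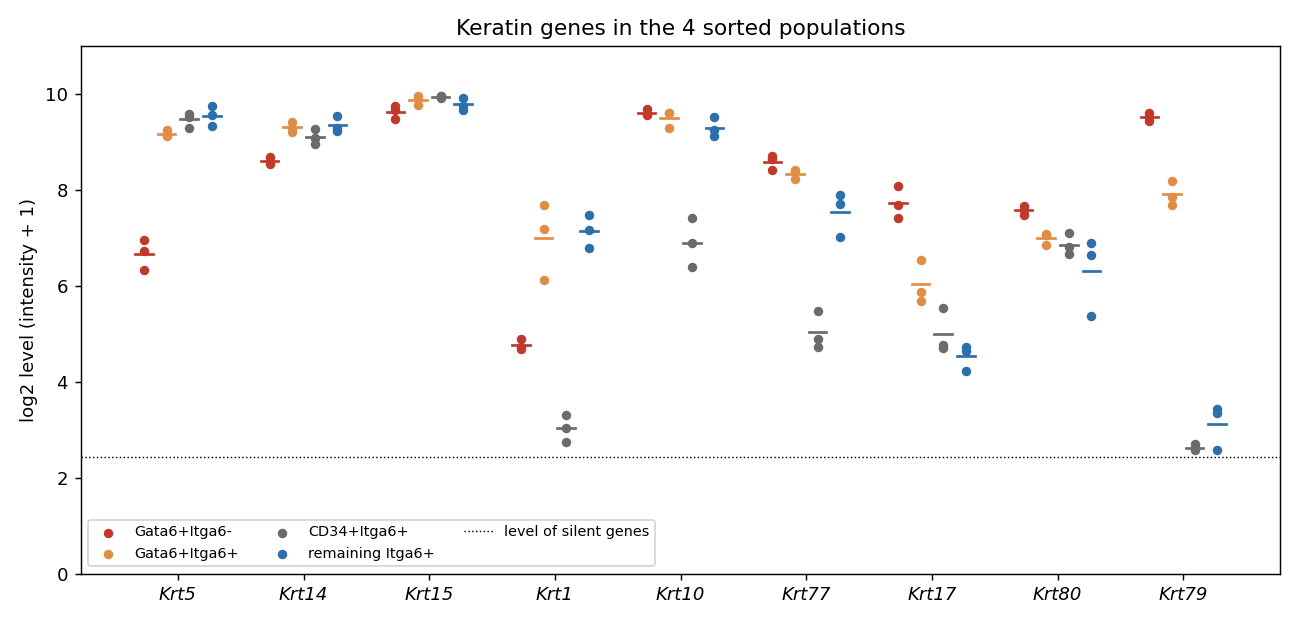
Log2 level (y axis, intensity plus 1) of 9 keratin genes on all 12 arrays, with Gata6+Itga6− in red, Gata6+Itga6+ in orange, CD34+Itga6+ in grey and remaining Itga6+ in blue; short lines are means of 3 arrays and the dotted line is the level of silent genes. Krt5 and Krt1 lie lower in Gata6+Itga6− than in remaining Itga6+ cells, Krt10 and Krt15 lie close together, and Krt79 and Krt17 lie higher.

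Of 23 measured genes of spinous differentiation 9 were higher, 1, Krt1, was lower and 13 were not called, with a median log2 change of 0.83. The higher count was 7 without both brighter arrays or with a further quantile normalization and 14 with the mean of probe sets. Besides Dsc1 these included Ivl, which encodes the envelope protein involucrin and was at 5.94, 5.80 and 5.27 in Gata6+Itga6− cells, against 1.54, 1.42 and 1.56 in remaining Itga6+ cells. All 3 remaining Itga6+ arrays of Ivl lay at silent levels (at least 9.40-fold higher, log2 change 4.17, SE 0.23, adjusted p = 3.95e-06). The secreted proteins Dmkn and Sbsn were 9.75-fold and 7.82-fold higher, and Calml3, a calmodulin-like protein, 5.99-fold (all 3 with adjusted p up to 0.000815). Dsg1a, the desmoglein that pairs with Dsc1, was at 8.76 ± 0.10 against 7.77 ± 0.27 and did not pass the test (adjusted p = 0.0934). The median level of the list ran from 6.76 to 7.16 over Gata6+Itga6− arrays and from 5.95 to 6.61 over remaining Itga6+ arrays. Over Gata6+Itga6+ arrays it ran from 6.56 to 6.92, so the ranges of the populations with Gata6 overlapped.

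Of 46 measured genes of the granular layer and cornified envelope, 9 were higher and 1 lower, and 21 lay under the level of silent genes in both populations. The median log2 change was 0.23. Klk7 was at 6.42, 7.22 and 6.80 in Gata6+Itga6− cells, against 2.34, 2.46 and 2.28 in remaining Itga6+ cells, with 6 of 6 probe sets separated. The related protease Klk5 was at least 3.38-fold higher (adjusted p = 0.00184), and Spink5, the inhibitor of both, stood at 8.33, 8.36 and 8.36 in Gata6+Itga6− cells, against 4.75, 4.38 and 5.34 in remaining Itga6+ cells (11.5-fold higher, log2 change 3.52, SE 0.23, adjusted p = 1.25e-05). Cdsn, the desmosome protein these proteases cut, was at least 3.14-fold higher (adjusted p = 0.00812), and Tgm1, a transglutaminase that cross-links the envelope, at least 2.21-fold higher. Tgm3, a second such enzyme, was lower, at 1.96, 1.73 and 2.07 in Gata6+Itga6− cells, against 2.70, 3.55 and 4.45 in remaining Itga6+ cells. Its adjusted p of 0.0196 was lost without remaining Itga6+ replicate 2 (0.0634) or Gata6+Itga6− replicate 1 or 2 (0.0577 and 0.0774), and without both brighter arrays (0.0635). The late markers Lor, which encodes loricrin (log2 change 1.43, SE 0.37, adjusted p = 0.0592), and Flg2 (2.18, SE 0.57, adjusted p = 0.0605) did not pass the test, and Flg2 was at 4.599, 1.94 and 4.50 in Gata6+Itga6− cells, with replicate 2 at a silent level.

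Lipid genes of the barrier were higher in 9 of 24 measured and lower in none (0 at an unadjusted p under 0.05), with a median log2 change of 0.61. Acer1, an alkaline ceramidase of skin, was at 4.99, 5.74 and 5.69 in Gata6+Itga6− cells, against 2.77, 2.67 and 2.65 in remaining Itga6+ cells (6.84-fold higher, log2 change 2.77, SE 0.27, adjusted p = 0.000162). Abca12, which loads lipids into lamellar granules, was 5.58-fold higher with 52 of 58 probe sets separated, and Degs2, which makes the phytoceramides of skin, at least 2.00-fold. The count was 8 without both brighter arrays, 5 to 10 with single arrays left out and 2 with the brightest probe set alone, where Abca12 and Degs2 were not called. The median level of this list ran from 2.82 to 3.33 over Gata6+Itga6− arrays and from 2.44 to 2.60 over remaining Itga6+ arrays. Over Gata6+Itga6+ arrays it ran from 2.65 to 3.30, which overlaps the first range. Of 24 measured lipoxygenase and prostaglandin genes 4 were higher and none lower (5 lower at an unadjusted p under 0.05). Alox12e stood at 7.24, 7.61 and 7.47 in Gata6+Itga6− cells, against 3.11, 1.97 and 2.89 in remaining Itga6+ cells, and all 15 probe sets were separated (log2 change 4.79, SE 0.25, adjusted p = 2.61e-06). Acsl4, which activates arachidonic acid, was 9.08-fold higher, and Ephx3, an epoxide hydrolase that acts on lipoxygenase products in skin, at least 3.56-fold. Ptgr1, a reductase of prostaglandins and leukotrienes from the NRF2 list, was 14.3-fold higher, at 8.49 ± 0.045 against 4.65 ± 0.78.

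Retinoid genes moved in both directions, 4 of 22 higher and 2 lower. Sdr16c6 and Sdr16c5, dehydrogenases that act on retinol, were at least 6.59-fold and at least 7.04-fold higher. Sdr16c6 was at 4.81, 5.25 and 5.42 in Gata6+Itga6− cells, against 1.42, 1.40 and 1.35 in remaining Itga6+ cells, whose 3 arrays were all silent. Rdh12, a retinal reductase, was 3.14-fold higher (adjusted p = 0.00935; not called with the brightest probe set or in a fit of the 6 arrays alone). The alcohol dehydrogenases Adh7 and Adh1, which also oxidize retinol, were lower. Adh7 stood at 3.24, 3.15 and 2.85 in Gata6+Itga6− cells, against 5.27, 5.68 and 5.12 in remaining Itga6+ cells (4.85-fold lower, log2 change −2.28, SE 0.28, adjusted p = 0.000722). Adh1 was at least 1.83-fold lower (adjusted p = 0.0013; not called with the brightest probe set). In Gata6+Itga6+ cells Adh7 was at 7.12 ± 0.45, from which Gata6+Itga6− cells differed by −4.04 (adjusted p = 5.68e-05).

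Interfollicular basal markers were lower in 15 of 19 measured genes and higher in none (0 at an unadjusted p under 0.05), with a median log2 change of −1.89. Over all genes 2.15% were lower, and this list too was made with earlier results of these data known. Beside the metallothioneins, Il1r2 and the keratins, Ly6a, a surface protein of interfollicular cells, was at 1.75, 2.47 and 1.41 in Gata6+Itga6− cells, against 5.30, 5.42 and 6.42 in remaining Itga6+ cells (at least 9.60-fold lower). Ly6a belongs to a family of close relatives and rests on 2 probe sets. The cyclins Ccnd1 and Ccnd2, which drive entry into the cell cycle, were 3.64-fold and 3.83-fold lower, and the transcription factor Sox6 at least 3.00-fold (adjusted p = 0.00751, 0.00221 and 9.22e-05). Axin2, a Wnt target of basal cells, was at 4.44 ± 0.41 against 5.05 ± 0.31 and did not pass the test (adjusted p = 0.195). The count was 12 without both brighter arrays and 10 with the brightest probe set.

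Of 30 measured genes of hemidesmosomes, integrins and the basement membrane, the sort marker Itga6 included, 11 were lower, 1 was higher and 18 were not called. The median log2 change was −0.29, 10 genes lay under the level of silent genes in both populations, and 8 were lower without both brighter arrays. Itgb1, the beta 1 integrin, was at 3.62, 3.94 and 2.66 in Gata6+Itga6− cells, against 6.37, 6.24 and 7.51 in remaining Itga6+ cells, with 16 of 18 probe sets separated (9.83-fold lower, log2 change −3.30, SE 0.38, adjusted p = 0.00054). Its partners Itga2 and Itga3 were at least 3.21-fold and at least 2.92-fold lower. Itga2 lay under the level of silent genes on all 3 Gata6+Itga6− arrays. Of the hemidesmosome, Col17a1, the collagen that spans the membrane, was at 4.20, 4.604 and 3.80 in Gata6+Itga6− cells, against 6.35, 6.22 and 6.94 in remaining Itga6+ cells (4.92-fold lower, 39 of 41 probe sets separated), and Itgb4, the partner of Itga6, was 3.73-fold lower. The laminin chains Lama3 and Lamb3 were 2.95-fold and at least 3.52-fold lower (adjusted p = 1.03e-05 and 0.000443). Itgb8, an integrin that activates TGF-beta, was higher, at 4.53 ± 0.36 against 2.33 ± 0.43 (at least 3.92-fold; not called with the brightest probe set). Members with high levels that were not called included Itgav and Cd151, with log2 changes of −0.06 and −0.13.

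Cell cycle genes were lower in 10 of 37 measured and higher in none (0 at an unadjusted p under 0.05), with a median log2 change of −0.64, and 20 lay under the level of silent genes in both populations. Mcm6, a subunit of the replicative helicase, was at 2.10, 2.78 and 2.31 in Gata6+Itga6− cells, against 4.40, 4.88 and 5.23 in remaining Itga6+ cells (at least 4.87-fold lower, log2 change −2.44, SE 0.24, adjusted p = 0.000184). Mcm3 and Mcm4 of the same complex were at least 2.66-fold and at least 2.74-fold lower, and Mki67, a marker of dividing cells, was at 2.18, 2.00 and 2.00 in Gata6+Itga6− cells, against 3.28, 3.52 and 4.47 in remaining Itga6+ cells (at least 2.49-fold lower, adjusted p = 0.00857). Remaining Itga6+ replicate 3, the brighter array, was the highest of its group in Mcm3, Mcm4, Mcm6 and Mki67. Without both brighter arrays 4 of the 10 were lower and Mcm3 was not called; with single arrays left out the count was 5 to 10. In Gata6+Itga6+ cells Mcm6 and Mki67 stood at 5.12 ± 0.23 and 4.82 ± 0.48, from which Gata6+Itga6− cells differed by −2.73 and −2.76 (adjusted p = 0.000241 and 0.00102). Of the inhibitors of cyclin-dependent kinases, 1 of 6 was higher: Cdkn1a, at 7.87, 8.11 and 7.78 in Gata6+Itga6− cells, against 6.55, 5.81 and 6.31 in remaining Itga6+ cells (3.24-fold, log2 change 1.70, SE 0.19, adjusted p = 0.000502). Cdkn1b did not pass the test (log2 change 0.65, SE 0.28, adjusted p = 0.317).

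Genes of cell junctions were higher in 11 of 26 measured and lower in 2 (8 and 1 without both brighter arrays). Cldn4, a claudin of tight junctions, was at 5.83, 6.43 and 6.20 in Gata6+Itga6− cells, against 1.72, 2.92 and 1.63 in remaining Itga6+ cells (at least 11.7-fold higher, log2 change 4.06, SE 0.33, adjusted p = 4.99e-05). It was silent in Gata6+Itga6+ cells too (2.05 ± 0.32), from which Gata6+Itga6− cells differed by 4.10. Cldn8, Cldn1 and Cldn23 were also higher, by at least 6.83-fold, 2.79-fold and at least 1.48-fold, as were the tight junction proteins Cgn (at least 3.98-fold), Marveld2 (2.90-fold) and Ocln (at least 1.92-fold). Cgnl1, a relative of Cgn, rose by 4.00 in the median of its probe sets, but its brightest probe set gave −0.28, and with that measure 4 genes of the list were higher and neither Cgn nor Marveld2 was called. Desmoglein 2 (Dsg2), a desmosomal cadherin of basal cells, was lower, at 2.68, 2.62 and 2.11 in Gata6+Itga6− cells, against 4.45, 4.70 and 5.46 in remaining Itga6+ cells (log2 change −2.40, SE 0.31, adjusted p = 0.00101). Cdh1 and Dsc3 were not called (log2 change 0.55, SE 0.20, adjusted p = 0.191 and 0.13, SE 0.21, adjusted p = 0.886).

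The Skint genes, butyrophilin-like surface proteins through which mouse keratinocytes shape the gamma delta T cells of the epidermis, were higher in 6 of 10 measured and lower in none (1 at an unadjusted p under 0.05). Skint9 stood at 6.75, 7.26 and 6.92 in Gata6+Itga6− cells, against 2.49, 2.44 and 3.27 in remaining Itga6+ cells (19.0-fold higher, log2 change 4.25, SE 0.29, adjusted p = 1.55e-05). Skint4 was at least 9.33-fold, Skint8 at least 4.62-fold, Skint10 7.37-fold, Skint3 at least 4.61-fold and Skint2 at least 3.13-fold higher, and Gata6+Itga6− cells were also over Gata6+Itga6+ cells in Skint9 (log2 change 2.17, adjusted p = 0.00362) and Skint2 (2.20, 7.19e-05), but not past the threshold in Skint3 (0.31, 0.786). The members resemble each other in sequence, so cross-hybridization between them cannot be told apart from parallel changes. Their count was 6 under every alternative set of arrays, scaling and probe set measure that was counted for lists.

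Receptors of cytokines were lower more often than higher: 7 of 27 against 1, and of 14 genes of the interleukin 1 family 2 were lower (1 to 2 with single arrays left out) and 1 higher. Il20ra, a chain of the receptor for interleukins 19, 20 and 24, was at 1.99, 1.68 and 1.92 in Gata6+Itga6− cells, against 5.25, 5.53 and 6.18 in remaining Itga6+ cells (at least 9.26-fold lower). Il12rb2 was at least 10.3-fold and Il2rg, the common gamma chain, at least 2.64-fold lower, and Ifngr1, of the interferon gamma receptor, 3.87-fold. Il22ra1, the chain that makes epithelial cells respond to interleukin 22, ran the other way, at 7.01, 7.36 and 7.62 in Gata6+Itga6− cells, against 2.79, 2.46 and 4.29 in remaining Itga6+ cells (17.7-fold higher, log2 change 4.15, SE 0.67, adjusted p = 0.00442). Il18r1, of the interleukin 18 receptor, was at least 4.76-fold higher. With the brightest probe set none of the 7 receptors was called, and the log2 changes of Il20ra, Il12rb2 and Il2rg were −0.75, −1.88 and −0.42. Of 31 measured genes of defence 3 were higher (9.68%) and 1 lower (3.23%), against 2.96% and 2.15% over all genes. Pglyrp4, a peptidoglycan recognition protein, was 10.1-fold higher, at 6.37 ± 0.84 against 3.03 ± 1.07, and Rnase4, a secreted ribonuclease, 4.41-fold lower; in a fit of the 6 arrays alone neither was called.

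Of 31 measured transcription factors of epidermal differentiation, 9 were higher and 4 lower, against 7 and 4 without both brighter arrays and 5 and 5 with the brightest probe set. Grhl3 and Grhl1, grainyhead factors of barrier formation, were both higher. Grhl3 was at 6.42, 6.59 and 6.55 in Gata6+Itga6− cells, against 3.81, 3.80 and 4.19 in remaining Itga6+ cells (6.002-fold, log2 change 2.59, SE 0.14, adjusted p = 3.65e-06). Grhl1 was 6.19-fold higher, the ETS factor Ehf 4.94-fold, Zfp750 4.16-fold and the vitamin D receptor Vdr 4.23-fold, all with adjusted p up to 0.00939. Prdm1 and Elf5 were at least 2.01-fold and at least 2.05-fold higher, but not called with the brightest probe set. Gata3, a GATA factor of epidermis and follicle, was lower while Gata6 was high: it stood at 5.72, 6.09 and 5.54 in Gata6+Itga6− cells, against 7.76, 8.24 and 8.48 in remaining Itga6+ cells, with 13 of 13 probe sets separated (5.19-fold lower, log2 change −2.37, SE 0.27, adjusted p = 0.000512). Klf5, a factor of proliferating keratinocytes, was 3.80-fold lower (log2 change −1.92, SE 0.26, adjusted p = 0.00162).

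Several genes best known from the bulge were higher in Gata6+Itga6− cells, 9 of 26 measured, with 2 lower. Cd200 was at 7.37, 7.72 and 7.43 in Gata6+Itga6− cells, against 2.24, 1.97 and 2.78 in remaining Itga6+ cells, and at 7.52 ± 0.35 in CD34+Itga6+ cells, from which it did not differ past the threshold (log2 change −0.02). Lhx2, a homeobox factor of follicle stem cells, was 8.56-fold higher, and the activin inhibitor Fst 5.96-fold (log2 change 3.10, SE 0.18, adjusted p = 5.28e-06 and 2.57, SE 0.19, adjusted p = 2.48e-05). Both were lower in Gata6+Itga6− than in CD34+Itga6+ cells (log2 change −2.74 and −1.27). Foxp1 was 4.99-fold higher, but its brightest probe set gave 0.24 without a call. Sfrp1, a secreted Wnt inhibitor, was at least 4.96-fold lower, and Lgr5 was silent in both populations (1.70 ± 0.062 and 1.70 ± 0.073). Sebaceous gland genes were called in 5 of 26, of which 17 lay under the level of silent genes in both. Aqp3, a glycerol channel, was 3.85-fold higher (not called with the brightest probe set) and Scd1, a fatty acid desaturase, 4.22-fold lower (not called with the brightest probe set or in a fit of the 6 arrays alone), and 1 gene was higher without both brighter arrays in place of 4. The lipogenic enzyme Fasn was not called (log2 change 0.18, SE 0.17, adjusted p = 0.765), and Pparg and Mc5r, markers of sebocytes, were silent in both.

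Most members of the signalling pathways were not called, while over all genes 2.96% were higher and 2.15% lower. The shares were 7.69% higher and 7.69% lower for Wnt genes and 8.70% and 4.35% for Notch genes. They were 18.75% and 6.25% for EGF receptor genes and 2.33% and 6.98% for BMP and TGF-beta genes, each from a small list. Of 43 genes of the BMP and TGF-beta pathway 3 were lower and 1 higher. Bmp4, a ligand, was at 1.61, 1.45 and 1.55 in Gata6+Itga6− cells, against 4.83, 3.93 and 5.45 in remaining Itga6+ cells (at least 4.92-fold lower, log2 change −3.20, SE 0.29, adjusted p = 0.000119), while Bmp7, another ligand, was 4.54-fold higher. The brightest probe set of Bmp4 gave −0.86 and was not called, and without both brighter arrays 1 gene of the list was lower and none higher. Of 39 Wnt pathway genes 3 were higher, among them the receptors Lgr4 (3.58-fold) and Fzd7 (2.49-fold), and 3 lower, with 1 to 4 lower when single arrays were left out and 5 with the brightest probe set. The lower ones include the ligand Wnt5a, for which no change is given because both means lay under the level of silent genes. Of 23 Notch genes 2 were higher, led by the receptor Notch2 (2.77-fold), and 1 lower, the ligand Jag2 (at least 2.56-fold), whose brightest probe set ran the other way at 0.29. The receptor Notch1 was not called (log2 change −0.14, SE 0.23, adjusted p = 0.888). Of 16 EGF receptor genes 3 were higher and 1 lower, the ligand Epgn (at least 1.54-fold), and the higher count was 0 to 2 with single arrays left out. Egfr itself was not called (log2 change −0.15, SE 0.33, adjusted p = 0.92), nor was any of 14 Hedgehog genes (1 lower at an unadjusted p under 0.05). With their brightest probe sets Lgr4, Notch2 and Epgn were not called.

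**Figure D5:**
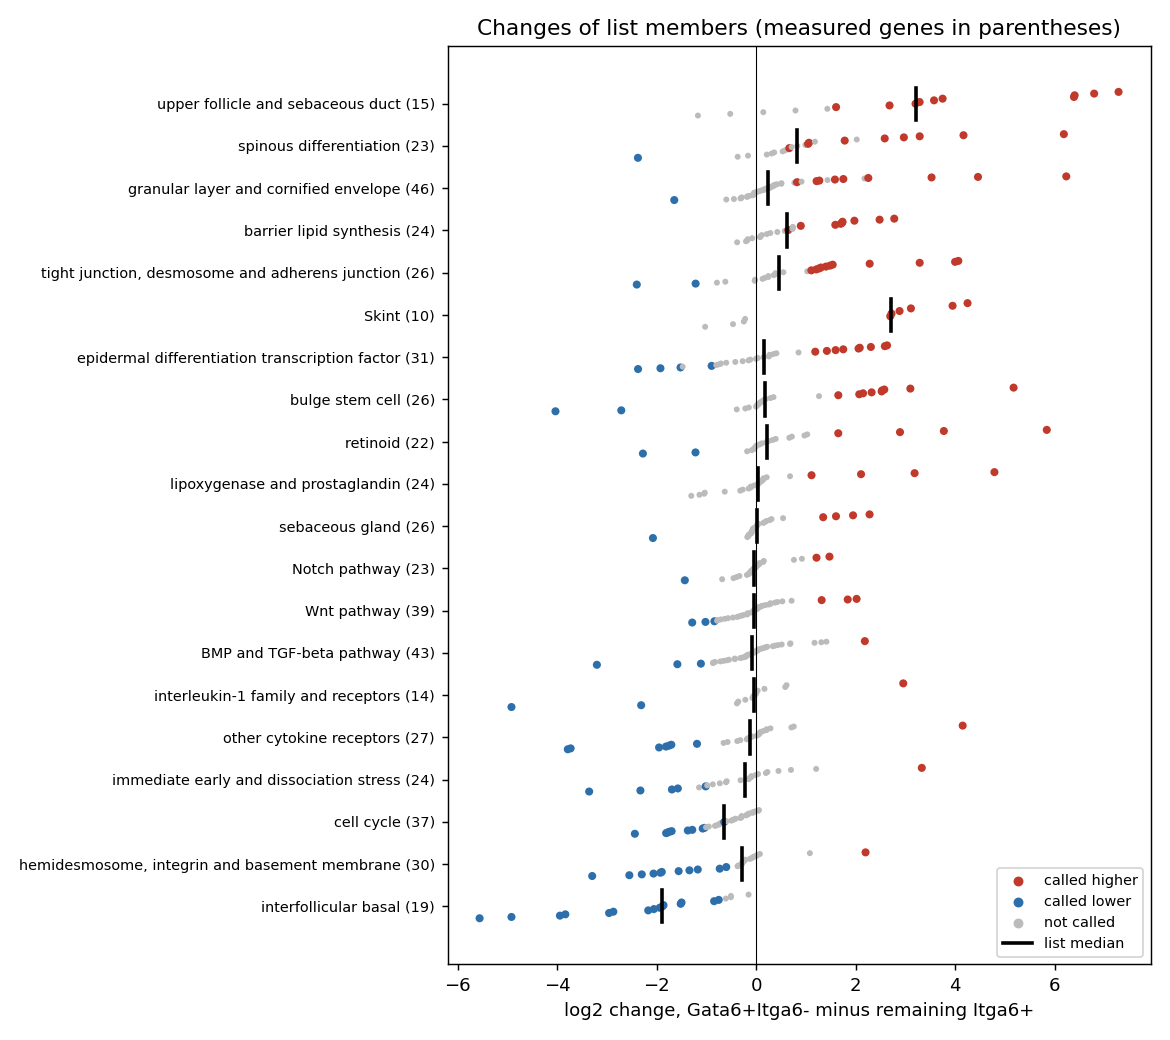
Log2 change (x axis, Gata6+Itga6− minus remaining Itga6+) of each measured member of 20 gene lists (rows, number of measured genes in parentheses). Red points are genes called higher, blue points genes called lower, grey points genes that were not called, and black bars the list medians, which run from −1.89 for interfollicular basal genes to 3.20 for upper follicle genes.

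Immediate early genes, which tissue digestion can induce, were lower in 5 of 24 measured and higher in 1, and 1 was lower without both brighter arrays and 1 to 4 with single arrays left out. Nr4a1 was at least 2.77-fold lower (adjusted p = 0.00549, not called without both brighter arrays). Egr2 was the exception, at 8.68, 8.98 and 8.68 in Gata6+Itga6− cells, against 4.71, 6.30 and 5.35 in remaining Itga6+ cells (10.0-fold higher, log2 change 3.33, SE 0.43, adjusted p = 0.00104), while Egr1 and Dusp1 were not called (log2 change −0.59, SE 0.33, adjusted p = 0.482 and −0.99, SE 0.32, adjusted p = 0.144). The summed log2 level of the list ran from 90.1 to 96.3 over the Gata6+Itga6− arrays and from 97.5 to 109 over the remaining Itga6+ arrays. The part of digestion in the other results was not tested. For the lists that follow, the shares over all genes were 2.96% higher and 2.15% lower. A single called gene made up 3.57% of the glycolysis and hypoxia list, 4.17% of the interferon list and 5.26% of the cholesterol list. Of 28 genes of glycolysis and hypoxia 1 was higher and 1 lower (1 to 2 each with single arrays left out), and of 19 cholesterol genes 2 were higher, the epoxidase Sqle and the sterol carrier Stard4 (at least 2.87-fold and at least 3.12-fold; neither called with the brightest probe set), and 1 lower. Without both brighter arrays 4 cholesterol genes were higher and none lower. Of 30 genes of the AhR and NRF2 list 4 were higher and 1 lower (2 to 4 and 1 to 2 with single arrays left out), and of 6 companion layer genes 2 were higher (1 to 2 with single arrays left out, 1 without both brighter arrays). The interferon list had 1 of 24 lower, Usp18, and the gap junction list 1 of 4 lower, Gja1; each was lost in 5 of 6 fits without 1 array and without both brighter arrays, and the brightest probe set of Usp18 ran the other way at 0.21.

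Markers of other skin cells were mostly near silent in both populations, but not in every list. Only 7 of 12 T cell genes lay under the level of silent genes in both. The same held for 7 of 12 genes of muscle and adipocytes and 8 of 11 of melanocytes. No gene was called among 10 of Merkel cells, 17 of Langerhans cells and macrophages, 12 of T cells, 12 of endothelium, 2 of erythrocytes and 22 of the inner root sheath and hair shaft by limma. At an unadjusted p under 0.05 there were 1 Merkel cell, 1 Langerhans cell, 3 T cell and 1 root sheath gene and none of endothelium or erythrocytes. Some alternatives did call members: up to 2 T cell genes were higher with 1 array left out, 2 Langerhans cell and macrophage genes were higher with the mean of probe sets, and 1 of that list was higher and 1 lower with the brightest probe set, among them H2-Ab1 (log2 change 1.65, adjusted p = 0.00873). The brightest probe set also called 1 Merkel cell gene higher and 2 root sheath genes lower, and the mean of probe sets 1 T cell gene higher and 2 root sheath genes lower. Of the fibroblast genes, 15 of 17 lay under the level of silent genes in both. Cd207, the Langerhans marker, was at 1.91 ± 0.017 in Gata6+Itga6− cells and 1.85 ± 0.14 in remaining Itga6+ cells, Pecam1 of endothelium at 1.79 ± 0.13 and 1.76 ± 0.18, and Col3a1 of fibroblasts at 1.76 ± 0.095 and 1.71 ± 0.091. The fibroblast list had 1 gene lower, the matrix protein Sparc, at 1.61, 2.10 and 2.26 in Gata6+Itga6− cells, against 4.83, 4.69 and 5.95 in remaining Itga6+ cells (at least 6.57-fold), and its summed level ran from 33.7 to 34.1 in Gata6+Itga6− and from 36.0 to 37.5 in remaining Itga6+ arrays. Sparc was highest in CD34+Itga6+ cells, at 8.62 ± 0.16. The summed level of the T cell list ran from 22.4 to 27.5 over Gata6+Itga6− arrays and from 22.7 to 24.9 over remaining Itga6+ arrays, with Cd3e at 2.22, 2.17 and 3.80 in Gata6+Itga6− cells, high in replicate 3, and 2.39, 2.17 and 2.03 in remaining Itga6+ cells. The marginal calls of Kit in the melanocyte list and of Mylpf in the muscle list (adjusted p = 0.022 and 0.049) were both lost without both brighter arrays and in several of the fits without 1 array, 3 of 6 for Kit and 6 of 6 for Mylpf (0.0598 to 0.157).

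Gata6+Itga6− cells were next set against the populations that share one of their marks; these comparisons use the same Gata6+Itga6− arrays. Against Gata6+Itga6+ cells 208 genes were higher (1.17%) and 359 lower (2.01%), and against CD34+Itga6+ cells 574 were higher (3.22%) and 847 lower (4.74%). Defb6 was at 9.44 ± 0.17 in Gata6+Itga6−, 7.96 ± 0.47 in Gata6+Itga6+, 1.90 ± 0.16 in CD34+Itga6+ and 2.16 ± 0.47 in remaining Itga6+ cells. Krt79 stood at 9.52 ± 0.088, 7.91 ± 0.26, 2.63 ± 0.065 and 3.12 ± 0.48 in the same sequence. Both genes stood higher in the Itga6− than in the Itga6+ population with Gata6 (log2 change 1.48 and 1.61, adjusted p = 0.0151 and 0.00347). Klk7, Ivl and Krt23 set the Gata6+ populations further apart, with log2 changes of 3.68, 2.86 and 4.33 (adjusted p = 5.68e-05, 0.000123 and 5.75e-07). Plet1 and Lrig1 did not differ past the threshold between them (log2 change 0.43 and −0.34, adjusted p = 0.575 and 0.748). Among lower genes, Mt2 was at 2.10 ± 0.30 in Gata6+Itga6− cells, against 6.56 ± 0.40, 6.75 ± 0.27 and 7.66 ± 0.26 in Gata6+Itga6+, CD34+Itga6+ and remaining Itga6+ cells, so only the Itga6− population was silent for it. Il1r2 had another order, at 1.65 ± 0.23, 2.65 ± 0.85, 1.76 ± 0.37 and 6.56 ± 0.54 in the same sequence, high in remaining Itga6+ cells, and Gata6+Itga6− cells did not differ past the threshold from Gata6+Itga6+ cells (adjusted p = 0.291).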

How the data were processed

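Gene expression of sorted mouse epidermal cells was measured on 12 Affymetrix exon arrays, of which the 6 of Gata6+Itga6− and remaining Itga6+ cells are compared here. Per the labels' protocols, RNA was isolated after flow sorting, amplified, converted to biotin-labelled cDNA and hybridized. The authors deposited intensities of 235932 probe sets. Per the submitters' processing notes, Affymetrix Power Tools made them by RMA (robust multi-array average) with the mm9 build; tool versions are not given in the sources used here. No source states whether they are log2 or linear. They were taken as linear because the arrays reach 2172 to 2953 at most and have medians from 3.97 to 4.57, and all levels and folds depend on that. RMA usually makes array distributions alike, which hides any change common to the majority of genes; the deposited arrays still differed in their upper quartiles.

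Probe sets with 1 gene symbol (221205) were used; 1684 had several and 13043 none. Symbols were updated through a RefSeq table of GRCm38.p6 (15377 current, 2489 updated, 42 kept), and log2(intensity + 1) was summarised per gene by the median over its probe sets (typically 10; 959 genes had 1), for 17853 genes. A limma 3.58.1 model (R 4.3.3) gave each of the 4 populations a mean, using all 12 arrays (prior degrees of freedom 2.12, residual 8), with Benjamini-Hochberg adjustment over all genes and calls at an adjusted p under 0.05. Each adjusted p in the text comes from this fit or, where named, from an alternative of it. An exact permutation of 3 against 3 arrays cannot reach such a threshold and was not used. The number of arrays limits precision, and as the animals behind them are not given, p-values measure the spread between arrays, which may be partly technical. The procedure was tested on simulated data.

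The members and the 39 gene lists (873 genes, 59 not analysed here) were chosen with earlier results of these data known, and lists are described by counts without a test. Named genes are the sort genes, the 15 largest called rises and falls with separated arrays and no predicted gene models, up to 4 called members of smallest p per list and direction, the 2 highest uncalled members per list, and Krt5, Krt14, Krt1, Krt10, Krt79, Krt15, Krt17, Lrig1, Plet1, Lgr5 and Ly6a. Chosen after their values were seen were Atp6v1c2, Ccnd1, Ccnd2, Cd207, Cd3e, Cdsn, Cldn1, Cldn23, Cldn8, Col17a1, Col3a1, Ehf, Flg2, Ifngr1, Itga3, Itgb4, Klk10, Klk5, Krt77, Lgr6, Lor, Mc5r, Mki67, Ocln, Pecam1, Pparg, Sbsn, Skint10, Skint3, Sox6, Vdr and Zfp750, and all genes named under other observations. Alternatives were another summary of probe sets, pseudocount, normalization, filter, brightness covariate, fits of 6 arrays, replicate and array letter blocks, moderated trend, and arrays left out; leaving out both brighter arrays was chosen after seeing the data.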

Additional observations from a re-analysis of the deposited data

How the results depend on the processing

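The counts of 913 called, 529 higher, 384 lower and 718 genes of at least 2-fold stayed within 1.5 times under equal array medians, a brightness covariate, the brightest probe set, a filter of the dimmest genes, moderated trend, a fit of the 6 arrays, and blocks over 12 arrays. The mean of probe sets gave 1403 called (796 higher, 607 lower), a further quantile normalization 622 lower and a pseudocount of 8 407 of at least 2-fold. Without both brighter arrays 218 were lower. With single arrays left out the counts ran from 644 to 862 called, 362 to 582 higher, 240 to 382 lower and 550 to 694 at least 2-fold. Arrays of the 2 groups with the same replicate number had correlations of deviations of 0.11, −0.14 and −0.12. The highest correlation between the groups, 0.27, joined the 2 brighter arrays, so these values cannot settle whether arrays were paired. Same-numbered arrays of the 2 groups also shared an array letter. With replicate as a block in the 6 arrays 244 genes were called (167 higher, 77 lower, 244 of at least 2-fold). That fit lost 65 of 143 calls of named genes, against 35 with the brightest probe set, 22 in the 6 arrays without a block, 22 without both brighter arrays and 12 to 19 without single arrays; of the other alternatives, a pseudocount of 8 lost 11 and the rest 7 or fewer. Direction turned in 9 named genes, each with the brightest probe set: Btc (−0.42), Cgnl1 (−0.28), Dtx4 (−0.24), Jag2 (0.29), Junb (0.48), Kit (−0.16), Pglyrp3 (−0.49), Pnpla1 (−0.67) and Usp18 (0.21); the cause was not tested. Genes near the level of silent genes on all arrays (9525 under it in both groups) allow no statement about small changes.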

Other observations

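Some gene families wholly or partly outside the lists held called genes. These families were chosen after their values were seen and are given as values. Of the metallothioneins, Mt1 and Mt2 were already counted among the interfollicular basal genes. Over all genes 2.96% were higher and 2.15% lower. Of 21 V-ATPase subunit genes, which build the proton pump of acidic compartments, 3 were higher than in remaining Itga6+ cells and none lower. Atp6v1c2 of the upper follicle list was one of them. Atp6v0a4 stood at 6.61, 6.75 and 6.52 in Gata6+Itga6− cells, against 3.33, 2.65 and 2.87 in remaining Itga6+ cells (12.8-fold higher, limma log2 change 3.68, SE 0.34, adjusted p = 0.000119). The call of Atp6v1b2 was marginal (limma adjusted p = 0.0287). It was lost without each remaining Itga6+ array in turn and without Gata6+Itga6− replicate 2 or 3 (0.0628 to 0.104). Psapl1, a relative of prosaposin measured by 1 probe set, was 18.9-fold higher, Cyp2b19, an epidermal cytochrome P450, 16.1-fold and Gsdma, a gasdermin of skin, at least 7.19-fold. Cyp2b19 was at 6.61 ± 0.38 in Gata6+Itga6− cells, against 2.66 ± 0.14 in Gata6+Itga6+ cells and 2.60 ± 0.12 in remaining Itga6+ cells (SD, n = 3). Epcam, an epithelial adhesion protein that Langerhans cells also carry in mouse skin, was 8.55-fold higher, at 6.74 ± 0.079 against 3.65 ± 0.32. In Gata6+Itga6+ cells Epcam was at 5.33 ± 0.78. The Langerhans marker Cd207 was silent in both compared populations, and the cell source of Epcam was not tested.

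Guidance genes changed in both directions. Of 20 semaphorin genes 3 were higher and 3 lower. Sema4g and Sema6a were at least 4.37-fold and at least 3.72-fold higher, and Sema3e was also higher (adjusted p = 0.00415). Sema3c was at 2.49, 2.42 and 2.47 in Gata6+Itga6− cells, against 5.79, 5.88 and 6.67 in remaining Itga6+ cells. It was 12.6-fold lower (log2 change −3.66, SE 0.21, adjusted p = 5.4e-06), with 24 of 24 probe sets separated. Sema3d and Sema5a were lower too (adjusted p = 0.00139 and 0.033). The Sema5a call was lost without remaining Itga6+ replicate 2 or 3, and without each Gata6+Itga6− array in turn (0.0782 to 0.123). The guidance receptor Robo1 was at least 8.51-fold lower. Of 4 metallothionein genes 3 were lower, the third being Mt4 (5.85-fold, adjusted p = 0.0116), and Fth1, the heavy chain of the iron store ferritin, was at 5.28, 5.26 and 5.01 in Gata6+Itga6− cells, against 7.66, 7.95 and 8.29 in remaining Itga6+ cells (6.88-fold lower). Fgfr2, a receptor for fibroblast growth factors, was at least 8.38-fold lower, the chromatin organizer Satb1 at least 8.35-fold and Wee1, a kinase that delays mitosis, 9.27-fold. Of 24 clade B serpins 3 were lower and none higher, among them Serpinb7 (at least 3.56-fold).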
